A study of Mus musculus with 3 samples.

Results

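The genes that copy DNA in S phase were examined in ST2, a stromal cell line from mouse bone marrow, after NELL2 overexpression or Fn1 knockdown. The group was a list of 49 gene symbols for origin licensing, the replicative helicase, the clamp, the polymerases, nucleotide supply, E2F factors, E-type cyclins and chromatin copying. A row of the expression table belonged to it when its gene name was one of these symbols, and all 49 were found among the 51826 rows, each on a single row. The rule used gene names and no threshold on the measured values. The list was, however, chosen with earlier results of these data known, so shares of members are a description and not an independent test.

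Polyadenylated RNA was sequenced from 3 transfections of ST2 cells, with 1 library in each. The control library (NC_Vector) received empty vector with control siRNA, the NELL2 overexpression library (NC_Nell2) received the NELL2 construct with control siRNA, and the Fn1 knockdown library (siFn1_Vector) received empty vector with siRNA against Fn1. All 3 had therefore been through lipofection with a plasmid and an siRNA at 30 nM, and the cells were a single established line kept in serum. The comparisons addressed which transcripts differ when the secreted factor NELL2 is raised or its partner fibronectin 1 is lowered. No group had a replicate check, so a difference compares 2 libraries and carries no p-value. Where 3 levels of a gene are given in a row, they stand in the order control, NELL2 overexpression, Fn1 knockdown.

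Fn1 was at 2802, 2489 and 137 FPKM (fragments per kilobase of transcript, scaled to the mapped fragments of the library), and Nell2 was at 0.640, 326 and 1.06 FPKM, as labelled. The 9 stromal markers examined were all at 1 FPKM or more, with Col1a1 at 1494, 1601 and 1352 FPKM. Of 11 markers of haematopoietic, endothelial, epithelial, fat and mature bone cells, 9 stayed under 1 FPKM in every library, and Ptprc, the defining haematopoietic surface marker, did not exceed 0.0633 FPKM. The other two were the macrophage-associated genes Lyz2 (11.8, 13.9 and 7.22 FPKM) and Cd68 (4.08, 3.54 and 1.57 FPKM), both of which fell in the Fn1 knockdown library, and their part in the results was not tested. Estimated depths were close, at 23000000, 23700000 and 24200000 fragments, and 12306, 12329 and 12220 genes reached 1 FPKM.

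Before S phase, the origin recognition complex, Cdc6 and Cdt1 load the ring of MCM subunits onto DNA, and geminin blocks further loading once replication has begun. Cdc45 and the GINS complex then turn the ring into a moving helicase, RPA coats the exposed single strands, primase and DNA polymerase alpha lay down primers, and polymerases delta and epsilon extend them on the PCNA clamp. Most of these genes are expressed in proliferating cells under E2F factors, which cyclin-dependent kinases release from pocket proteins late in G1. In bone, stromal progenitors divide before they mature into osteoblasts or adipocytes.

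Each of the 48 members that could be compared was lower in the Fn1 knockdown library than in the control library, mostly by a modest amount. Members were compared where they reached 1 FPKM in either library, which left out only E2f2 (0.494, 0.553 and 0.583 FPKM). The summed level of all 49 was 960, 914 and 736 FPKM, so that Fn1 knockdown stood at 76.6% of the control sum and NELL2 overexpression at 95.2%. The median member stood at 74.5% of its control level with Fn1 knockdown, within a range of 61.1% to 96.9%, and at 95.9% with NELL2 overexpression, within a range of 70.3% to 162%. In bulk RNA, fewer cells in S phase and less of these transcripts per cell cannot be told apart.

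**Figure D1:**
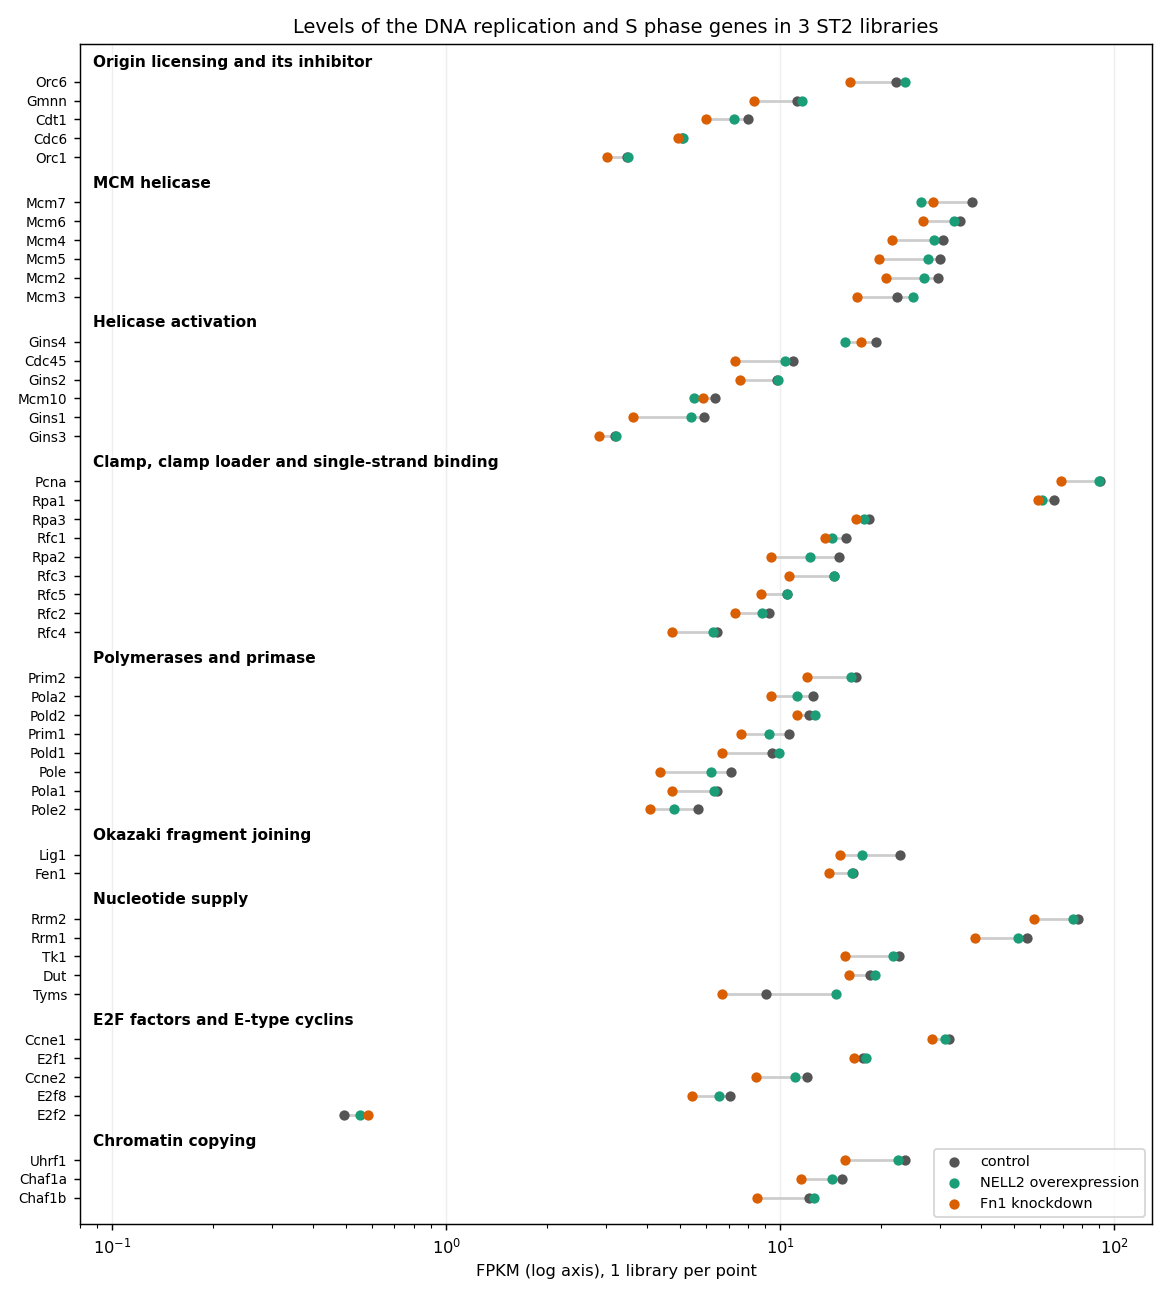
Level of each of the 49 members in FPKM on a log axis, grouped by role, with 1 point for each of the 3 libraries and a grey line joining the lowest to the highest. The Fn1 knockdown point is the leftmost in 45 of the 48 members at 1 FPKM or more, and E2f2 lies apart at the left, under 1 FPKM in all 3 libraries.

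Differences were taken as log2(FPKM + 1), with a negative value for a lower level in the first library named, and a gene was called when this difference reached 1.5-fold (0.58 on the log2 scale, rounded). On this scale the members' median difference between Fn1 knockdown and control was -0.38, with quartiles of -0.47 and -0.21. Over all 12574 genes compared the median was -0.0028 and the quartiles were -0.16 and 0.15. All 48 members were on the lower side, where 50.5% of all genes lay. At 1.2-fold, a smaller step added after the values had been seen, 34 of 48 members were lower against 15.7% of all genes, and no member was higher against 14.1%. At 1.5-fold 2 of 48 members, Rpa2 and Pole, were lower against 3.32% of all genes, which is close to that background, and none was higher against 2.92%. No member reached 2-fold, which 0.549% of all genes did in the lower direction. The difference was thus spread over many members, most of which lay under the fold used for a call.

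**Figure D2:**
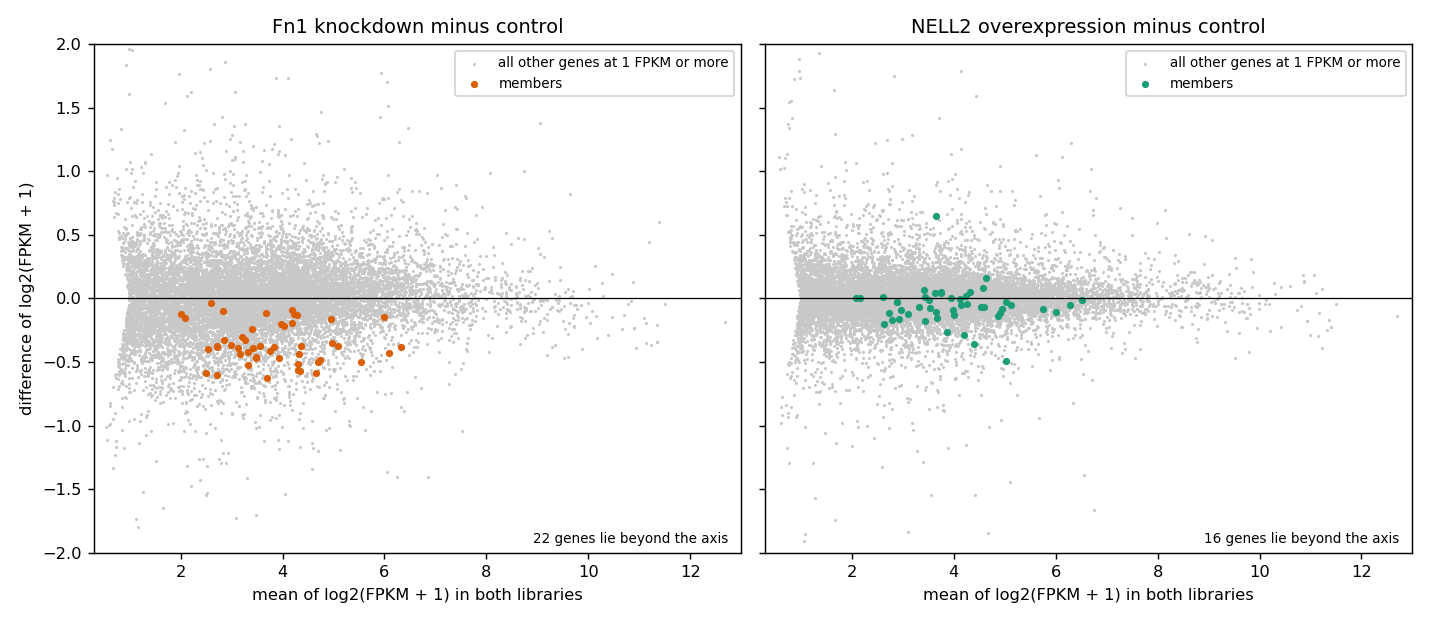
Difference of log2(FPKM + 1) from the control library against the mean of log2(FPKM + 1) in both libraries, for Fn1 knockdown (left) and NELL2 overexpression (right), with members coloured and all other genes at 1 FPKM or more in grey. The members form a band from -0.62 to -0.04 below the zero line at left, and at right they lie around it with a median of -0.06.

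Fragment numbers were approximate. Estimated from FPKM, transcript length and depth, they ran from about 90 fragments for Tyms to about 6061 for Rpa1 over the 48 compared members and the 3 libraries, and E2f2, which was not compared, had about 54, 62 and 67. The length was the median over a gene's annotated protein-coding transcripts, for example 559 bases for Tyms, 658 for Mcm4 and 1523 for Pole. The counting error of a difference from control was about 0.0839 (1 SE, median over members, Fn1 knockdown) on the log2 scale and at most 0.203. This error covers the counting of fragments only and leaves out variation between cultures, which 1 library per group cannot show. It is overstated, and the fragments understated, where short annotated transcripts pull the median length below that of the RNA present.

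The sequence before the start site is shown for 3 members that hold the E2F letters and for Rpa2, a called member that holds none. The windows are the 250 bases before the RefSeq start on GRCm38.p6, read 5′ to 3′ along the gene, and capitals mark a match to the E2F consensus in any of the spellings TTTCGCGC, TTTGCCGC, TTTCCCGC and TTTGGCGC on either strand. Mcm5 (chr8:75109259-75109508, plus strand), Mcm6 (chr1:128359706-128359955, minus strand) and Uhrf1 (chr17:56304063-56304312, plus strand) hold matches, and Rpa2 (chr4:132768110-132768359, plus strand) has no match in this window.
Mcm5: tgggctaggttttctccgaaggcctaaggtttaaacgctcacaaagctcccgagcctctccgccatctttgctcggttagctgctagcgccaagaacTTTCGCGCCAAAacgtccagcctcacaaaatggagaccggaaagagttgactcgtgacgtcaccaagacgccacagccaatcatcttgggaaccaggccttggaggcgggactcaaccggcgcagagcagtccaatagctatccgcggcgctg
Mcm6: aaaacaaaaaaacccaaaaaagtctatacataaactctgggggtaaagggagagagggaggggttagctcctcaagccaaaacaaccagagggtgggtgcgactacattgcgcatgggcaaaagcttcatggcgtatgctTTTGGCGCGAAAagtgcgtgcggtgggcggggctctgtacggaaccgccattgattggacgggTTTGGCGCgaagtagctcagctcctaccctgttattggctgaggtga
Uhrf1: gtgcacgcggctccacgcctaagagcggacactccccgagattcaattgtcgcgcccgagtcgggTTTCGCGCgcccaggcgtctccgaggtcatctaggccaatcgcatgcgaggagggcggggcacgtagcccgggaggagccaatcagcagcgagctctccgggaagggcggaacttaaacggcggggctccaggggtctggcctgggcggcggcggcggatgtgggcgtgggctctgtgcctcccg
Rpa2: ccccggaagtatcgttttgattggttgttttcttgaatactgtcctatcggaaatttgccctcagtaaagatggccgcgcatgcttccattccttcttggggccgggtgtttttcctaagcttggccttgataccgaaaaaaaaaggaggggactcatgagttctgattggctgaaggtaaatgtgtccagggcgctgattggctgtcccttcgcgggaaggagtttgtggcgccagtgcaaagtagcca
The capitals in Mcm5 begin 153 bases before the start and join 2 overlapping matches on opposite strands. The same kind of overlap begins 110 bases before the start of Mcm6, which holds a further match at 47 bases, and the match in Uhrf1 begins 185 bases before its start. The Uhrf1 window printed belongs to the downstream of 2 RefSeq starts and lies inside the gene as GENCODE M21 draws it (chromosome 17, from 56303321), and the window of the upstream start holds no match. The last bases of the Rpa2 window lie in an exon that GENCODE M21 starts earlier than RefSeq does.

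RefSeq windows from 250 bases before to 50 bases after a start were given for 40 of the 49 members, 47 windows in all. They were not given for Ccne2, Gins1, Gins2, Gins4, Gmnn, Mcm4, Pole, Prim2 and Rfc2. An E2F match stood in 15 of the 47 windows (31.9%) and in 2.26% of 32851 windows of the same length over all genes. The commonest spellings in member windows were TTTCGCGC and TTTGGCGC, each in 14.9% of them, against 0.323% and 0.514% of all windows, while TTTCCCGC stood in 12.8% against 1.07% and TTTGCCGC in none against 0.441%. The CCAAT box was in 59.6% of member windows and 37.4% of all, and the cell cycle homology letters TTTGAA were in 14.9% and 17.9%. The E2F matches belonged to Orc1, Cdc6, Cdt1, Mcm3, Mcm5, Mcm6, Mcm7, Gins3, Rfc3, Pola1, Pold1, Pole2, Lig1, Uhrf1 and E2f2. The median difference between Fn1 knockdown and control was -0.38 in the 14 compared members with a match (range -0.58 to -0.04) and also -0.38 in the 25 compared members with a window and no match (range -0.62 to -0.09). For CCAAT it was -0.38 both in the 24 members with the box and in the 15 without, and for TTTGAA it was -0.28 in 6 members with the letters and -0.38 in 33 without. A match is a string of letters and not a measured binding site, and a window without one says nothing about E2F elsewhere.

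Origin licensing genes lay between -0.44 and -0.04 with Fn1 knockdown, the latter being the smallest difference of all compared members. Orc6, a subunit of the origin recognition complex, was at 22.2, 23.6 and 16.2 FPKM (-0.44 in log2 for Fn1 knockdown minus control). Cdt1, which brings the MCM ring to origins, was at 8.01, 7.29 and 5.99 FPKM, and its inhibitor Gmnn was at 11.2, 11.6 and 8.33 FPKM. Loader and inhibitor thus stood at 74.7% and 74.2% of control with Fn1 knockdown. Cdc6, the other loading factor, was at 5.09, 5.13 and 4.93 FPKM, or 96.9% of control, a difference of -0.04 with a counting error of 0.0992. Orc1, the largest subunit of the recognition complex, was at 3.48, 3.49 and 3.02 FPKM, a difference of -0.16 with a counting error of 0.134. The licensing median was -0.37 with Fn1 knockdown and 0.01 with NELL2 overexpression over 5 genes.

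The 6 subunits of the MCM ring were all lower in the Fn1 knockdown library, within a narrow span from -0.58 for Mcm5 to -0.35 for Mcm6. Mcm5 was at 30.0, 27.7 and 19.7 FPKM, just short of the 1.5-fold call. Mcm2 was at 29.7, 26.9 and 20.7 FPKM and Mcm4 at 30.6, 28.8 and 21.6 FPKM, and both had their lowest value with Fn1 knockdown. Mcm6 was at 34.4, 33.2 and 26.8 FPKM. The subunits enter the ring in equal number, and their summed level was 185 FPKM in control, 168 FPKM (91.0% of control) with NELL2 overexpression and 135 FPKM (72.9%) with Fn1 knockdown. The highest subunit was 1.68, 1.33 and 1.69 times the lowest in the 3 libraries, and Mcm3 was the lowest in each. The narrower span with NELL2 overexpression came from both ends, since Mcm3 was at 22.4 FPKM in control and 25.0 FPKM there, while Mcm7 was at 37.5 and 26.4 FPKM.

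Mcm7 had its lowest value in the NELL2 overexpression library and not in the Fn1 knockdown library, where it was at 28.7 FPKM. Its difference of -0.49 between NELL2 overexpression and control (70.3% of control, counting error 0.0849) was the lowest of all members in that comparison. Mcm7 (ENSMUSG00000029730.16, GRCm38 chromosome 5, 138164583 to 138172422, minus strand in GENCODE M21) has 10 annotated transcripts and carries the microRNA genes Mir25 and Mir93 within its exons on the same strand. The part of these features in its value was not tested.

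Among the genes that switch the helicase on, Gins1 and Cdc45 had the largest differences on the log2 scale with Fn1 knockdown. Cdc45 was at 10.9, 10.3 and 7.33 FPKM, 67.0% of control with Fn1 knockdown. Gins1 was at 5.93, 5.41 and 3.63 FPKM, and its 61.1% of control with Fn1 knockdown was the lowest percentage of all members, although the added 1 FPKM kept it at -0.58 (counting error 0.189) and below the call. Gins2 was at 9.75, 9.85 and 7.55 FPKM. Gins3 and Gins4, which complete the same 4-subunit complex, differed less from control with Fn1 knockdown, at -0.12 and -0.13. Gins4 was at 19.3 FPKM in control, 15.6 FPKM with NELL2 overexpression and 17.5 FPKM with Fn1 knockdown, and so joined Mcm7 in having its lowest level with NELL2. Mcm10, which stabilizes the forming fork, was the third of this kind, at 6.36, 5.53 and 5.87 FPKM. Levels of the GINS subunits were uneven, the highest being 6, 4.82 and 6.1 times the lowest in the 3 libraries.

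Pcna, the sliding clamp, was the most abundant member, at 90.7, 90.1 and 69.2 FPKM. Its difference with Fn1 knockdown was -0.39 with a counting error of 0.0384, and with NELL2 overexpression it was -0.01. The annotation also holds a Pcna pseudogene, Pcna-ps2, and how reads were divided between the copies is not given in the sources used here. The 5 subunits of the clamp loader summed to 56.5, 54.3 and 45.0 FPKM (96.2% and 79.7% of control), with Rfc3 at -0.41 and Rfc4 at -0.38 with Fn1 knockdown, Rfc2 and Rfc5 at -0.30 and -0.24, and the large subunit Rfc1 at -0.20.

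Rpa2, the middle subunit of the single-strand binding complex RPA, fell with Fn1 knockdown, and this was the largest difference of all members on the log2(FPKM + 1) scale. The rank depends on the pseudocount, since with 0.1 FPKM Gins1 and Pole were at -0.69 and Rpa2 at -0.67, and with 5 FPKM Mcm5 was at -0.50 and Rpa2 at -0.47. Rpa2 (ENSMUSG00000028884.14, GRCm38 chromosome 4, 132768332 to 132778752, plus strand) had levels of 15.0, 12.3 and 9.37 FPKM. The difference from control was -0.62 with Fn1 knockdown (62.6% of control, counting error 0.112, from about 419 to 276 fragments) and -0.27 with NELL2 overexpression. Its partners differed less. Rpa1 was at 65.8, 60.9 and 59.2 FPKM and Rpa3 at 18.4, 17.8 and 16.8 FPKM, so that Rpa1 was 4.40, 4.96 and 6.32 times Rpa2 in the 3 libraries. The 3 subunits form a complex of equal parts.

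Of the polymerase genes, Pole was called lower with Fn1 knockdown, and the other 7 lay between -0.46 and -0.11. Pole, the catalytic subunit of the leading-strand polymerase epsilon (ENSMUSG00000007080.14, GRCm38 chromosome 5, 110286306 to 110337474, plus strand), was at 7.10, 6.22 and 4.35 FPKM. This fall was -0.60 in log2 (61.3% of control), with a counting error of 0.146. Its accessory subunit Pole2 was at 5.67, 4.81 and 4.06 FPKM, in the same order of libraries. The primase subunits Prim1 and Prim2 were at -0.42 and -0.46 with Fn1 knockdown, and the polymerase alpha subunits Pola1 and Pola2 at -0.38 each. Polymerase delta was uneven. Its catalytic subunit Pold1 was at 9.44, 9.93 and 6.71 FPKM (-0.44), while the accessory subunit Pold2 was at 12.2, 12.7 and 11.2 FPKM (-0.11, about its counting error of 0.110).

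Both genes that finish Okazaki fragments were lower with Fn1 knockdown. Lig1, the ligase that seals the fragments, was at 22.8 FPKM in control, 17.6 FPKM with NELL2 overexpression and 15.1 FPKM with Fn1 knockdown. Its differences from control were -0.56 with Fn1 knockdown and -0.36 with NELL2 overexpression, the second lowest of the members with NELL2. Fen1, the nuclease that trims the flaps, was at 16.5, 16.4 and 14.0 FPKM, so its NELL2 overexpression value lay on that of control.

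Nucleotide supply held the one member that was called with NELL2 overexpression. Tyms, thymidylate synthase (ENSMUSG00000025747.12, GRCm38 chromosome 5, 30058202 to 30073617, minus strand), had levels of 9.04, 14.7 and 6.67 FPKM. It rose with NELL2 overexpression by 0.64 in log2 (162% of control, counting error 0.169) and was at -0.39 with Fn1 knockdown (counting error 0.203). These values rest on about 116, 195 and 90 fragments, estimated from a length of 559 bases. By that estimate the gene had the fewest of any compared member in the Fn1 knockdown library, and it has 9 annotated transcripts. No other nucleotide supply gene was called with NELL2 overexpression. Ribonucleotide reductase, which makes deoxynucleotides from a large subunit Rrm1 and a small subunit Rrm2, was at 54.6, 51.3 and 38.2 FPKM for Rrm1 and 78.0, 75.4 and 57.6 FPKM for Rrm2, at 70.0% and 73.8% of control with Fn1 knockdown. Tk1, which salvages thymidine, was at 22.7, 21.7 and 15.6 FPKM, and Dut, which removes dUTP, was at 18.5, 19.2 and 16.1 FPKM.

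The factors that drive entry into S phase lay between -0.46 and -0.09 with Fn1 knockdown. E2f1, an activator of replication genes, was at 17.7, 18.0 and 16.6 FPKM (-0.09 with Fn1 knockdown, counting error 0.0613). Ccne1 was at 31.9, 31.2 and 28.4 FPKM (-0.16), and Ccne2, its paralog among the cyclins that activate CDK2, was at 12.0, 11.1 and 8.44 FPKM (-0.46). The repressor E2f8 was at 7.06, 6.57 and 5.43 FPKM (-0.33). Whether these genes differ from the rest of the members was not tested.

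The genes that copy chromatin with the DNA were lower with Fn1 knockdown in all 3 cases. Uhrf1, which reads hemimethylated DNA and recruits the maintenance methyltransferase, was at 23.6, 22.5 and 15.6 FPKM (-0.57, counting error 0.0525). The chromatin assembly factor subunits were at 15.3, 14.3 and 11.5 FPKM for Chaf1a (-0.38) and at 12.2, 12.6 and 8.53 FPKM for Chaf1b (-0.47).

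**Figure D3:**
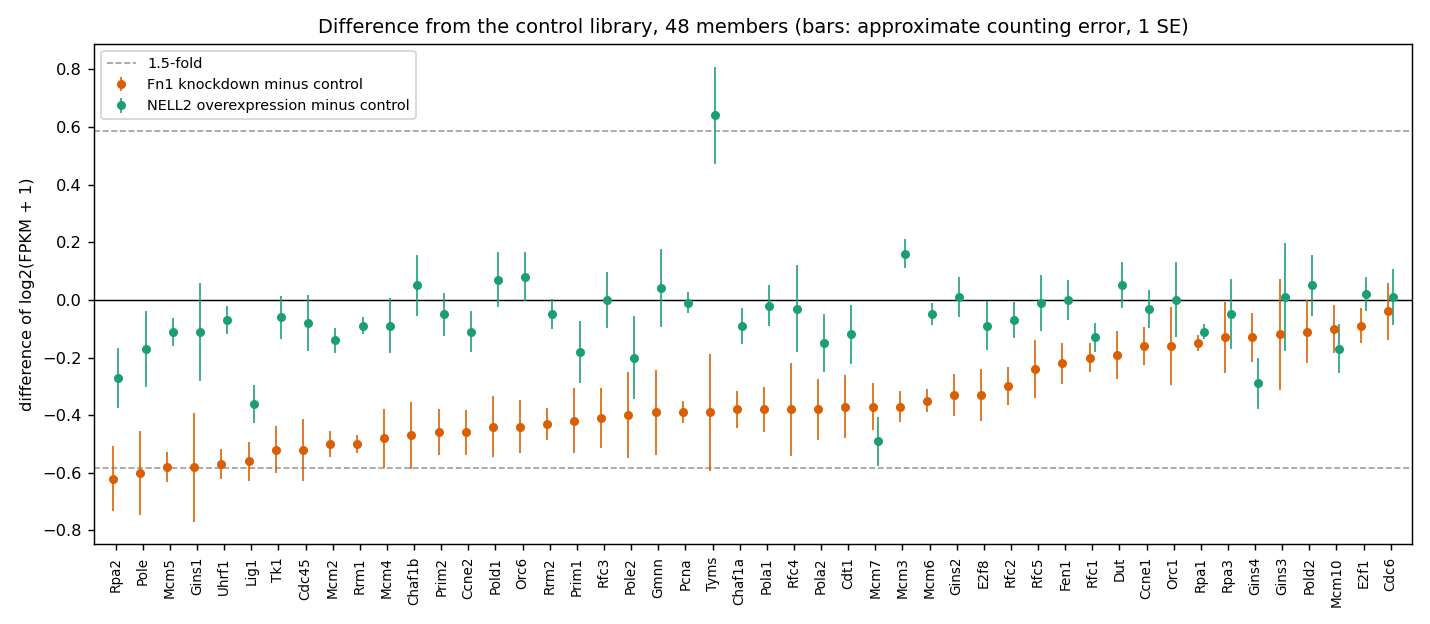
Difference of log2(FPKM + 1) from the control library for the 48 members compared, ordered by the Fn1 knockdown value, with Fn1 knockdown and NELL2 overexpression as separate points, bars of 1 approximate counting SE and dashed lines at 1.5-fold. All Fn1 knockdown points are below zero, from Rpa2 at -0.62 to Cdc6 at -0.04, and among the NELL2 overexpression points Tyms at 0.64 and Mcm7 at -0.49 stand out.

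With NELL2 overexpression the members lay close to the control library. Their median difference was -0.06, with quartiles of -0.11 and 0.00, against a median of 0.01 and quartiles of -0.08 and 0.10 over all 12572 genes. On the lower side stood 34 of 48 members, where 47.7% of all genes stood. At 1.2-fold 4 of 48 members were lower (Mcm7, Lig1, Gins4 and Rpa2) against 5.92% of all genes, and 1 of 48, Tyms, was higher against 7.79%. At 1.5-fold none was lower against 1.05% of all genes, and Tyms alone was higher against 1.54%. These counts are small, and the members at either step are within a few genes of the background. Values on the other side of control included Mcm3 at 0.16, Orc6 at 0.08 and Pold1 at 0.07, each of which was at its highest with NELL2 overexpression and at its lowest with Fn1 knockdown. Both comparisons use the same control library, so a high control value would lower both differences.

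The Fn1 knockdown and NELL2 overexpression libraries were also compared directly, which leaves the control library out. The members' median difference was -0.32 for Fn1 knockdown minus NELL2 overexpression, against a median of -0.01 and quartiles of -0.17 and 0.14 over all 12596 genes. On the lower side with Fn1 knockdown were 45 of 48 members, against 51.9% of all genes, and 26 of 48 were lower at 1.2-fold against 16.5%. At 1.5-fold 1 of 48, Tyms, was lower against 3.56% of all genes, with a difference of -1.03 (counting error 0.184) that adds its higher value with NELL2 to its lower value with Fn1 knockdown. The 3 members that were higher with Fn1 knockdown were Gins4 at 0.16, Mcm7 at 0.12 and Mcm10 at 0.07. Taking the 3 libraries together, Fn1 knockdown was the lowest in 45 of 48 members (93.8%), against 40.4% of 12733 genes that reached 1 FPKM in any library, and control was the lowest in none, against 32.1%.

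Genes of the same pathway outside the member list were examined next, from lists written with earlier results of these data known. Of 46 other replication genes, 36 were lower and 10 higher with Fn1 knockdown, with a median of -0.17 beside the members' -0.38. Over all genes 50.5% were lower. At 1.5-fold 1 of the 46 was called lower, a share no higher than the 3.32% of all genes. That gene was Dnmt1, the maintenance methyltransferase, which fell from 42.0 FPKM in control to 25.3 FPKM (-0.71), with 37.4 FPKM under NELL2 overexpression. Asf1b, a histone chaperone, was at 14.6, 17.3 and 9.90 FPKM and was called lower only in the direct comparison of Fn1 knockdown with NELL2 overexpression (-0.75). On the other side were Orc4 at 13.9, 17.0 and 18.4 FPKM (0.38) and Asf1a, the paralog of Asf1b, at 6.03, 5.82 and 7.44 FPKM (0.26).

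Some of these genes encode partners of members in 1 complex, and they were singled out after their values had been seen. In the origin recognition complex the members Orc6 and Orc1 were at -0.44 and -0.16 with Fn1 knockdown, Orc5 was at -0.30, and Orc2, Orc3 and Orc4 were at 0.05, 0.15 and 0.38. For polymerase epsilon the catalytic subunit Pole was at -0.60 and Pole2 at -0.40, whereas Pole3 and Pole4, histone-fold subunits, were at 0.04 and -0.15. For polymerase delta, Pold3 was at -0.24 and Pold4 at -0.04. In ribonucleotide reductase the S phase small subunit Rrm2 was at -0.43 and Rrm2b, the p53-inducible form that supplies cells outside S phase, was at 0.23, from 3.59 FPKM in control to 4.39 FPKM.

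The regulators upstream of the members were less uniform. Of 10 other E2F and pocket protein genes, 5 were lower and 5 higher with Fn1 knockdown, with a median of -0.09, and 1 was called lower. Over all genes 50.5% were lower, 3.32% were called lower and 2.92% were called higher in this comparison, and these shares also stand beside the counts of the following lists. E2f3, an activator like E2f1, fell from 8.12 FPKM in control to 3.49 FPKM (-1.02) and was at 8.22 FPKM with NELL2 overexpression. Rbl1, the pocket protein p107, was at 7.38, 6.92 and 4.63 FPKM (-0.57). Of 12 genes for G1 cyclins, their kinases and inhibitors, 3 were called lower and 1 higher. Ccnd3 was at 105, 75.2 and 40.1 FPKM (-1.37) and Ccnd1 at 262, 253 and 126 FPKM (-1.04), while the third D-type cyclin, Ccnd2, was at 175, 174 and 177 FPKM (0.02). The kinases that these cyclins activate release E2F factors. Cdkn2d, an inhibitor of those kinases, fell from 7.09 to 3.53 FPKM (-0.84), and Cdkn1c, the inhibitor p57, rose from 4.84 to 10.5 FPKM (0.98). Cdkn1b was at 11.9, 18.1 and 9.35 FPKM and was called lower only for Fn1 knockdown minus NELL2 overexpression (-0.88). The other listed inhibitors, Cdkn1a, Cdkn2a, Cdkn2b and Cdkn2c, lay between 0.04 and 0.09 for Fn1 knockdown minus control. The 20 mitotic genes were all lower with Fn1 knockdown, with a median of -0.66, and 16 of them were called, among them Plk1 at 40.2, 32.8 and 19.1 FPKM (-1.04). Their NELL2 overexpression median was -0.13, beside -0.06 for the members. The difference between these lists was not tested, since each rests on the same single libraries.

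**Figure D4:**
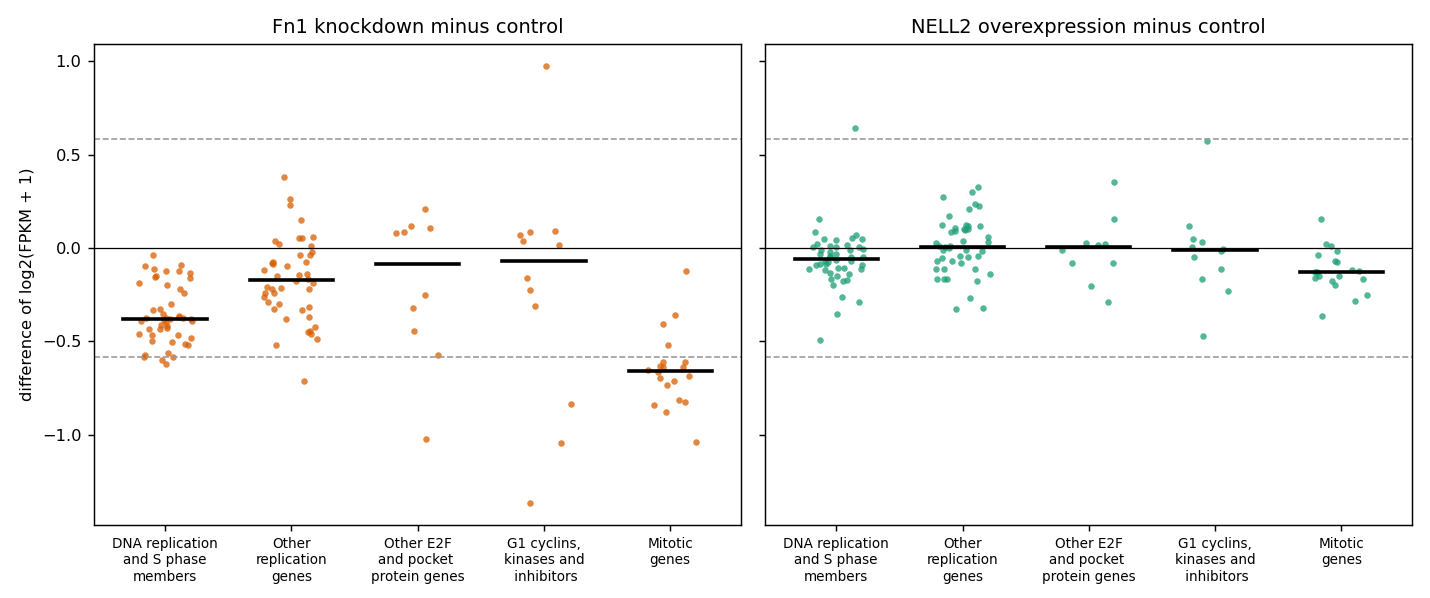
Difference of log2(FPKM + 1) from the control library for the members and for 4 lists of related genes, with Fn1 knockdown at left and NELL2 overexpression at right, 1 point per gene, a black bar at the median and dashed lines at 1.5-fold. At left the medians are -0.38 for the members, -0.17 for other replication genes, -0.09 for other E2F and pocket protein genes, -0.07 for G1 genes and -0.66 for mitotic genes, and at right they lie between -0.13 and 0.01.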

How the data were processed

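Polyadenylated RNA of 3 ST2 transfections was sequenced by the study as paired ends, 1 library per group. The values deposited by the authors were FPKM per gene. The submitters' processing notes name HISAT2, DESeq and GRCm38; the program that computed FPKM, its annotation and the use of strand in counting are not given in the sources used here. Those values were used as deposited, with no count model.

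Symbols were matched to GENCODE M21 on GRCm38. A gene was compared where it reached 1 FPKM in either library, on log2(FPKM + 1), a scale that understates the change of low genes. A gene was called at 1.5-fold. There was no test and no p-value. Depth (23000000, 23700000 and 24200000 fragments) was estimated from the step between low FPKM values. With the median length of a gene's protein-coding transcripts, this step also gave approximate fragments per gene. All 49 members were open to naming, as were genes of other lists that were called or were the 2 lowest or 2 highest of their list, and any other gene of these lists was chosen after its values were seen. The members and lists were chosen with earlier results of these data known. Promoter windows came from RefSeq (GRCm38.p6). Members sharing exons with another gene on the same strand were Mcm7, Rpa1 and Pole2. Alternatives were the fold (1.2 or 2), the pseudocount (0.1 or 5 FPKM), the filter (none or 5 FPKM), median-of-ratios scaling, equal sums, and leaving out those 3 members. The code of the fold rule was run on simulated libraries with counting error only, which leave out variation between cultures. Python 3.11.15, pandas 2.3.3, numpy 2.4.6, scipy 1.17.1 and matplotlib 3.10.9 were used.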

Additional observations from a re-analysis of the deposited data

How the results depend on the processing

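No paired analysis was possible because there was a single library for every condition, which also means that none could be left out. The medians kept their direction under every alternative tried, from -0.42 to -0.29 for Fn1 knockdown against control, from -0.07 to -0.05 for NELL2 overexpression against control and from -0.35 to -0.22 for Fn1 knockdown against NELL2 overexpression. Every compared member was lower with Fn1 knockdown than in control. The pseudocounts, filters and omission of members therefore could not reverse the direction of that median. The counts of called members depended on the fold and the pseudocount, and the construction of these alternatives sets the change. For Fn1 knockdown against control the 2 called members became 6 with a pseudocount of 0.1 FPKM (all lower, against 5.96% of all genes called lower), 0 with a pseudocount of 5 FPKM (0.962%), 0 at 2-fold and 34 at 1.2-fold. For NELL2 overexpression against control the 1 called member became 0 with a pseudocount of 5 FPKM (0.517% of all genes called higher), 0 at 2-fold and 5 at 1.2-fold. For Fn1 knockdown against NELL2 overexpression the 1 called member became 26 at 1.2-fold. The 1.2-fold step and leaving out the 3 members with shared exons were added after seeing the data. All 189 role group medians and all 857 values of single members under the alternatives moved by less than the one-sided width of a 95% counting interval (for a group, the median over its members), and 3 of the latter changed sign (Gins3, Orc1 and Rfc3 with NELL2 overexpression, at most 0.01 in size). This width describes fragment counting and not such shifts, so staying within it does not show stability. Gins1 with Fn1 knockdown went from -0.58 to -0.34 with a pseudocount of 5 FPKM and still lay within it. By the fragment estimates, which depend on the transcript length used, depth limits mainly Tyms, Gins1 and Gins3, with the fewest fragments of the compared members. The difference between cultures could not be estimated.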
